A study of Arabidopsis thaliana with 6 samples.

Results

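Late embryogenesis abundant (LEA) proteins are small, mostly hydrophilic proteins that plants store in drying seeds. The 51 LEA protein genes of Arabidopsis thaliana were taken by locus identifier from tables of transcript levels with 32884 rows, and each of the 51 had a row in all 6 libraries. They belong to 9 subfamilies, with 18 genes in LEA_4, 10 dehydrins, 6 in SMP (seed maturation protein), 4 in LEA_3, 3 each in LEA_1, LEA_2 and PvLEA18, and 2 each in LEA_5 and AtM. Messenger RNA was sequenced from whole seeds of hda15-1, which carries a mutant allele of the histone deacetylase gene HDA15 (3 libraries), and of wild type (3 libraries), both in the Col-0 background. Seeds of both genotypes had been dried for about 1 month after harvest. They then imbibed water for 1 h, were given a far-red light pulse of 5 min (3.82 µmol m-2 s-1), and stayed in the dark at 22 °C for 12 h. The comparison asks which transcripts depend on HDA15 in seeds held dark after far-red light, the light that turns phytochrome off. The labels name a single mutant allele and do not say whether libraries of the same genotype stem from different seed lots. The p-values therefore measure only the spread between these libraries, which may be technical.

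LEA transcripts build up during seed maturation under abscisic acid (ABA) and the seed transcription factors ABI3 and ABI5, and many of them return in leaves under drought or cold. Their proteins lack a fixed structure in water, and in drying cells they are thought to shield membranes and other proteins from damage. During imbibition and germination their transcripts are normally lost. Histone deacetylases remove acetyl groups from histones, a change usually linked to lower transcription.

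The transcript that the mutation targets set the genotypes apart. HDA15 (AT3G18520) was at 0.338, 0.651 and 0.417 FPKM in hda15-1, against 16.1, 12.97 and 14.8 FPKM in wild type. The groups did not overlap, and the difference was -3.41 on the log2(FPKM + 1) scale (SE 0.18, limma adjusted p = 3.79e-04). FPKM is fragments per kilobase of transcript scaled to the mapped total, which allows a rough comparison of levels between genes. Levels of short genes, such as most LEA genes, are less certain. Summed FPKM per library ranged from 879239 to 1159516, and 18902 to 19375 rows were above 0. The read totals are not in the tables. How many reads stand behind a low level is therefore not known, and LEA levels under 1 FPKM may rest on few. Of the 9 embryo storage reserve genes, CRC was listed at 0 in hda15-1 replicate 2 and wild type replicate 3 and between 17232 and 33132 FPKM in the other 4 libraries. Without CRC the list summed to 46223, 77832 and 60681 FPKM in hda15-1, against 42908, 48111 and 67187 FPKM in wild type, with overlap. The 4 endosperm genes summed to 7565 to 11444 FPKM in hda15-1 and 6676 to 10881 FPKM in wild type, nearly all of it EPR1, and ZOU was listed at 0 throughout. EXPA2, an expansin gene of the endosperm, did separate the genotypes, with 156, 164 and 247 FPKM in hda15-1, against 78.6, 17.2 and 19.9 FPKM in wild type. Its difference was 2.58 (SE 0.52, limma adjusted p = 0.223), and the part of the endosperm in the LEA values was not tested. MAN7, the other endosperm gene, was at 15.9, 19.8 and 31.1 FPKM in hda15-1, against 20.5, 14.1 and 13.4 FPKM in wild type, with overlap. Of 5 green tissue genes, RBCS1A was at 441, 551 and 615 FPKM in hda15-1, against 451, 349.6 and 406 FPKM in wild type, with overlap, and the other 4 stayed at or under 4.99 FPKM. The 3 seed coat genes stayed at or under 0.0592 FPKM in every library. Fewer cells of a type and less RNA per cell cannot be told apart in whole seeds.

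The LEA genes were split between some of the most abundant transcripts of the seed and transcripts that were nearly or fully missing. Over the mean of the 6 libraries, 27 of the 51 reached 100 FPKM, a level reached by 1355 of all rows. At 1000 FPKM or more stood 14 LEA genes among 134 rows of any kind, and the 100 highest rows also held 14 of them. RAB18 ranked 10, EM6 12, M10 14 and LEA18 15 among all rows. A further 9 LEA genes had means between 5 and 100 FPKM, 4 had means between 1 and 5 FPKM and 4 were above 0 but under 1 FPKM. The remaining 7 were listed at 0 in all 6 libraries, and an exact 0 in such tables can also be a failed estimate. Dehydrins gave 25.0% of the summed LEA FPKM and LEA_4 gave 21.0%. AtM and LEA_1 gave 14.7% each, LEA_5 14.1%, SMP 5.79%, PvLEA18 3.79%, LEA_2 0.725% and LEA_3 0.302%.

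**Figure D1:**
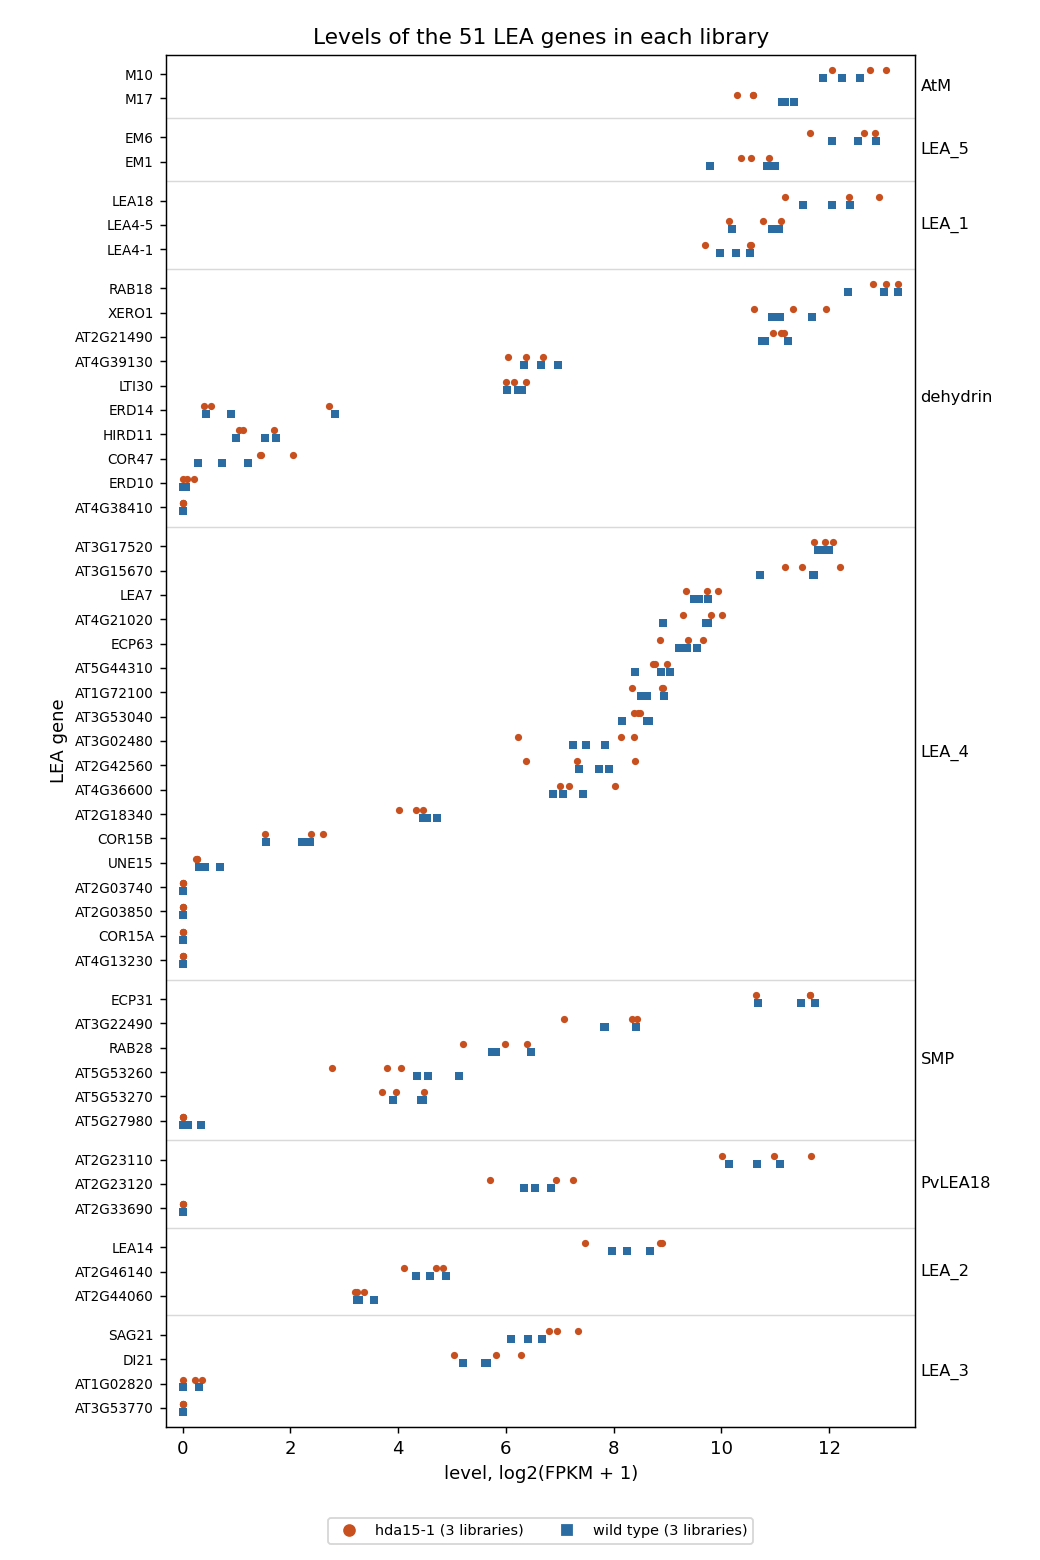
Level of each of the 51 LEA genes in each library as log2(FPKM + 1), by subfamily and by mean level within it, with hda15-1 libraries as circles just above the wild-type libraries as squares. RAB18, with a mean of 8201 FPKM, lies far right among the abundant seed genes, and the 7 genes listed at 0 in every library lie at the left edge.

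Dehydrins carry lysine-rich repeats that can bind membranes, and the dehydrin RAB18 was the most abundant LEA transcript. RAB18 (AT5G66400) was at 7248, 9904 and 8549 FPKM in hda15-1, against 5215, 8293 and 9999 FPKM in wild type. XERO1 (AT3G50980), a short dehydrin, was at 1562, 2573 and 3919 FPKM in hda15-1, against 3301, 1967 and 2173 FPKM in wild type. The hda15-1 and wild-type values of both genes overlapped, and wild type replicate 1 was the lowest of its genotype for RAB18 and the highest for XERO1. AT2G21490 had a mean of 2072 FPKM over the 6 libraries, AT4G39130 92.2 FPKM and LTI30, a dehydrin known for its induction by cold, 71.8 FPKM. The other 5 dehydrins had means under 5 FPKM. COR47 and HIRD11 had means of 1.46 and 1.60 FPKM, ERD14 2.27 FPKM and ERD10 0.0441 FPKM, and AT4G38410 was listed at 0 throughout.

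The 2 AtM genes and the 2 LEA_5 genes are expressed mainly in seeds, and all 4 exceeded 1000 FPKM on average. M10 (AT2G41280) was at 4254, 6903 and 8525 FPKM in hda15-1, against 3805, 4815 and 6087 FPKM in wild type. The mutant values of M10 overlapped the wild-type values, and in both genotypes replicate 1 was the lowest. Its neighbour M17 is taken up with the differences between the genotypes. EM6 (AT2G40170), which codes for an Em protein needed for normal timing of water loss in the maturing seed, was at 3190.0, 7421 and 6455 FPKM in hda15-1, against 4279, 5982 and 7456 FPKM in wild type. EM1 (AT3G51810), its close relative, was at 1313, 1884 and 1501 FPKM in hda15-1, against 889, 1849.5 and 2037 FPKM in wild type. For both Em genes the values of the genotypes overlapped and replicate 1 was the lowest of each genotype.

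LEA_1 holds 3 proteins that protect cells from water deficit, and all 3 genes were abundant. LEA18 (AT2G35300) was at 2324, 5328 and 7768 FPKM in hda15-1, against 2919, 4278 and 5375 FPKM in wild type. LEA4-5 (AT5G06760) was at 1130.0, 1749 and 2194 FPKM in hda15-1, against 1168, 1974 and 2139 FPKM in wild type. The order of the libraries was the same for both genes, with replicate 1 lowest and replicate 3 highest in each genotype, and the genotypes overlapped. LEA4-1, the other member, had a mean of 1257 FPKM.

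LEA_4 is the most numerous subfamily, and 4 of its 18 genes were listed at 0 while 2 exceeded 1000 FPKM on average. Its highest member AT3G17520 was at 3375, 3898 and 4313 FPKM in hda15-1, against 3536, 3784 and 4119 FPKM in wild type. AT3G15670 was at 2328, 2878 and 4694 FPKM in hda15-1, against 1693, 3329 and 3371 FPKM in wild type. AT3G17520 spread little within a genotype, AT3G15670 was highest in hda15-1 replicate 3 and lowest in wild type replicate 1, and both overlapped between the genotypes. Another 9 members had means between 158 and 806 FPKM, among them LEA7 at the top and ECP63 at 655 FPKM. AT2G18340 was the only LEA_4 gene between 5 and 100 FPKM, with 20.7 FPKM. COR15B, which codes for a chloroplast protein of cold-treated leaves, had a mean of 3.49 FPKM and UNE15 0.297 FPKM. In the annotation, AT2G42520 overlaps COR15B by 468 bp on the opposite strand, and the strand mode of the reads is not known. COR15B also shares 79.8% of bases over 405 bp with COR15A. COR15A, AT2G03740, AT2G03850 and AT4G13230 were listed at 0 throughout.

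The SMP genes code for seed maturation proteins. ECP31 (AT3G22500) was at 1599, 3197 and 3213 FPKM in hda15-1, against 1647, 2856 and 3433 FPKM in wild type. AT3G22490 was at 134, 347 and 324 FPKM in hda15-1, against 229, 226 and 340.1 FPKM in wild type. The genotypes overlapped for both. RAB28, whose protein is known from embryos, had a mean of 62.8 FPKM, and AT5G53260 and AT5G53270 had 18.4 and 17.2 FPKM. AT5G27980 was at or near 0.

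In PvLEA18 the levels of 2 neighbouring genes differed at least 13.4-fold in every library. AT2G23110 was at 1028, 2028 and 3267 FPKM in hda15-1, against 1136, 1626 and 2176 FPKM in wild type. AT2G23120 was at 51.2, 151 and 121 FPKM in hda15-1, against 79.5, 91.7 and 113 FPKM in wild type. Both overlapped between the genotypes, with replicate 1 lowest in each. AT2G33690 was listed at 0 throughout.

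LEA_2 and LEA_3 gave the smallest sums. LEA14 (AT1G01470), whose protein has a folded form, was at 177, 474 and 462 FPKM in hda15-1, against 249, 304 and 410.5 FPKM in wild type. AT2G46140 was at 16.2, 25.1 and 27.4 FPKM in hda15-1, against 28.6, 19.1 and 23.0 FPKM in wild type. Neither gene separated the genotypes, and AT2G44060 had a mean of 8.96 FPKM. In LEA_3, SAG21, a mitochondrial protein also induced in senescing leaves, is taken up with the differences between the genotypes. DI21 (AT4G15910) was at 31.9, 77.3 and 55.7 FPKM in hda15-1, against 47.8, 35.8 and 49.3 FPKM in wild type, again with overlap, while AT1G02820 reached at most 0.289 FPKM and AT3G53770 was listed at 0 throughout.

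Most upstream sequences of the abundant genes hold the core of the ABA response element, ACGTG, to which ABI5 and related factors bind. Each window was the 250 bases before the annotated start in the TAIR10.1 reference genome. Matches were searched on both strands, so the palindrome CACGTG counts as 2 overlapping matches. Of the 27 LEA genes with means of at least 100 FPKM, 23 had at least 1 ACGTG (85.2%) and 21 had 2 or more (77.8%). At least 1 match was in 30.2% of the 1271 protein-coding genes with means of at least 100 FPKM and in 22.9% of all 27443 protein-coding genes. For 2 or more matches the shares were 15.3% and 8.84%. XERO1 and M10 reach 2 matches through a single CACGTG. Among LEA genes between 5 and 100 FPKM, 7 of 9 had at least 1 match, and among those under 5 FPKM 6 of 15 did. CCGAC, the core bound by the cold and drought factors of the CBF and DREB families, was in 13 of the 27 abundant genes, against 14.7% of all genes at that level and 12.0% of all protein-coding genes. CATGCA, the RY element bound by ABI3 and its relatives, was in 6 of the 27, against 10.6% and 8.43% in the same backgrounds. Annotated genes overlapped 14 of the 51 windows. The matches are a description of the letters in these windows only. The windows below overlap no other annotated gene and are those of 3 of the most abundant LEA genes and of the 2 genes over 100 FPKM whose genotypes separated. They are written 5′ to 3′ on the strand of the gene, with matches to the 3 motifs in capitals.
EM6, minus strand, chr2:16780369-16780618: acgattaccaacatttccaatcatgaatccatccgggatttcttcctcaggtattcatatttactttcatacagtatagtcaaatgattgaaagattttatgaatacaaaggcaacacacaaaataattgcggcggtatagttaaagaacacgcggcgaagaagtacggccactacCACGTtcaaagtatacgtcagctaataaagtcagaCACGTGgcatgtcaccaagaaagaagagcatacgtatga
LEA18, minus strand, chr2:14863413-14863662: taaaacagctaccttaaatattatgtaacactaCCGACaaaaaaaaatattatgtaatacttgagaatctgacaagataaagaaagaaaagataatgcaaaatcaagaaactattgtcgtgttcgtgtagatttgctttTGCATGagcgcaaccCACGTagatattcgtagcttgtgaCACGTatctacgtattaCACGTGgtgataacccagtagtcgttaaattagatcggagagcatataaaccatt
M10, plus strand, chr2:17209447-17209696: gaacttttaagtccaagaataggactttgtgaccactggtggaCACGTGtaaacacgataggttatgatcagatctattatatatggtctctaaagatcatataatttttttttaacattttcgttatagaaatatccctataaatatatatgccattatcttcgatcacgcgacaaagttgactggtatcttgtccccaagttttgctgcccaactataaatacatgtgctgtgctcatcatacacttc
M17, plus strand, chr2:17206202-17206451: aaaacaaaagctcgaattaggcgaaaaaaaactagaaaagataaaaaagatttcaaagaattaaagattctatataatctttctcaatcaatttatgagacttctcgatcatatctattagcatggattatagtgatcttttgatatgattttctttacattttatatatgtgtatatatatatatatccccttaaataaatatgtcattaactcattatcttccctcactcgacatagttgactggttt
SAG21, minus strand, chr4:1047106-1047355: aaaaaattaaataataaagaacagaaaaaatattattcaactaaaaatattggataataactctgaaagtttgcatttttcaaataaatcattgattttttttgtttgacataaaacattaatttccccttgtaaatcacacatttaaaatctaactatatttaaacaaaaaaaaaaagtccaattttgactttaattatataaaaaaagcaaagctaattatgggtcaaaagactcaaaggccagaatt
EM6 has 3 matches to ACGTG, which begin 74, 39 and 38 bases before the start. LEA18 has 4 matches to ACGTG, 1 to CATGCA and 1 to CCGAC. M10 has 2 overlapping matches to ACGTG near the far end of its window. M17 and SAG21, the 2 genes over 100 FPKM whose libraries did not overlap between the genotypes, have no match to any of the 3 motifs. Neither has AT2G23120, also over 100 FPKM, whose genotypes overlapped. AT5G53260 and COR47, which separated at lower levels, have 2 matches to ACGTG and 1 to CATGCA, respectively. A link between the motifs and the differences was not tested.

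Added over all 51 genes, LEA transcripts made up about the same share of the summed FPKM in both genotypes. The LEA sum was 38185, 58630 and 65485 FPKM in hda15-1, against 39737, 50931 and 60133 FPKM in wild type. As a share of all FPKM this was 4.34, 5.49 and 5.65% in hda15-1 and 4.24, 5.58 and 5.82% in wild type. The sum averaged 54099.7 ± 14203 FPKM in hda15-1 and 50267 ± 10214 FPKM in wild type (SD, n = 3 each), and replicate 1 was the lowest of each genotype. The difference between the means was less than either SD. By subfamily, dehydrins summed to 13576 ± 2267 FPKM in hda15-1 and 12475 ± 2199 FPKM in wild type (SD, n = 3 each), and LEA_4 to 11333 ± 2182 FPKM in hda15-1 and 10567 ± 1586 FPKM in wild type. LEA_1 summed to 4284, 8563 and 11459 FPKM in hda15-1, against 5329, 7264 and 8988 FPKM in wild type, with replicate 1 lowest in each genotype. LEA_3 summed to 143.0, 199.97 and 216.1 FPKM in hda15-1, against 149.0, 120.7 and 117.1 FPKM in wild type. There, wild type replicate 1 exceeded hda15-1 replicate 1, and every other wild-type sum lay below every mutant sum.

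**Figure D2:**
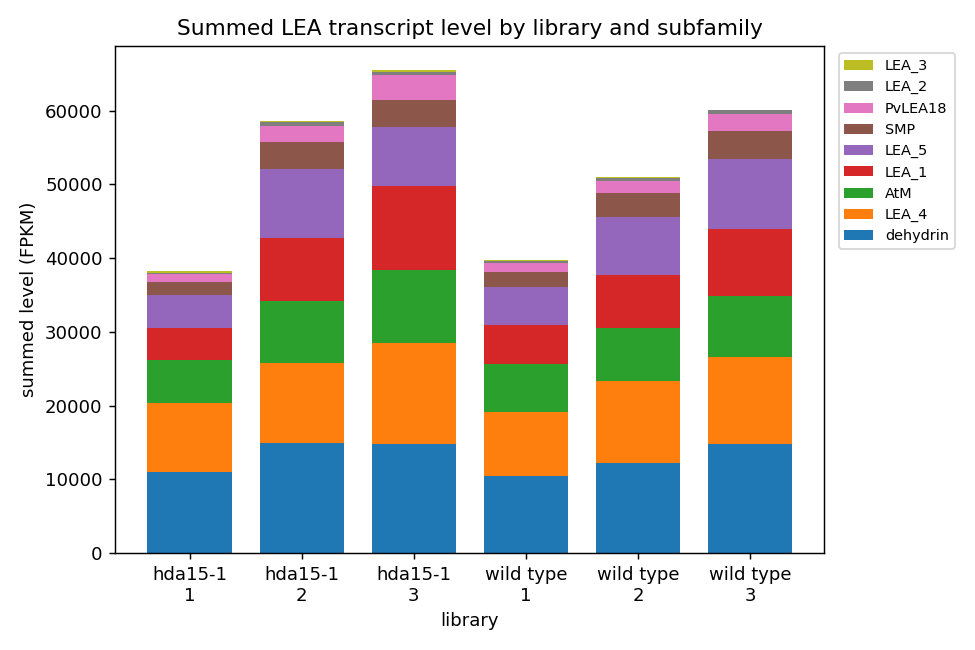
Summed FPKM of the LEA genes in each library, stacked by subfamily, hda15-1 left and wild type right. The library numbered 1 is the lowest in each genotype, with 38185 FPKM in hda15-1 and 39737 FPKM in wild type.

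The spread between libraries of a genotype was wider for the median LEA gene than for the median gene of the table. After the genotype means were removed, the residual SD on the log2(FPKM + 1) scale had a median of 0.43 over the 40 LEA genes that passed the filter of a mean of 1 FPKM. The median was 0.27 over all 15045 genes tested and 0.31 over the 1355 genes with means of at least 100 FPKM. In most LEA genes the library numbered 1 was the lowest of its genotype. In 33 of the 40 hda15-1 replicate 1 was the lowest of its genotype, against 42.9% of all genes tested. Wild type replicate 1 was the lowest for 23 of the 40, against 42% of all genes. Both were lowest for 21 of the 40, against 15% of all genes. Among the 27 LEA genes over 100 FPKM, hda15-1 replicate 1 was the lowest for 23, against 62.2% of all genes at that level, and wild type replicate 1 for 20, against 37.1%. Both were lowest for 18 of the 27, against 22.7%. AT2G42560, an LEA_4 gene, ran the other way in the mutant, with 335, 158 and 82.0 FPKM in hda15-1, against 164, 213 and 239 FPKM in wild type. Its highest and its lowest value were both in hda15-1, and its difference on the same scale was -0.31 (SE 0.46, limma adjusted p = 1.000), against 0.18 without hda15-1 replicate 3.

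ERD14 (AT1G76180) had a library pattern of another kind, and is named after its values were seen. It was at 5.56, 0.433 and 0.313 FPKM in hda15-1, against 6.10, 0.869 and 0.357 FPKM in wild type. Both libraries numbered 1 were more than 5 times the highest of the other 4, and the genotypes overlapped. ERD14 passed the filter of a mean of 1 FPKM only through the libraries numbered 1, as the other 4 were each under 1 FPKM. It was also picked for this pattern. The count of 1 of the 40 LEA genes tested, against 0.0532% of all genes, therefore supports nothing.

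**Figure D3:**
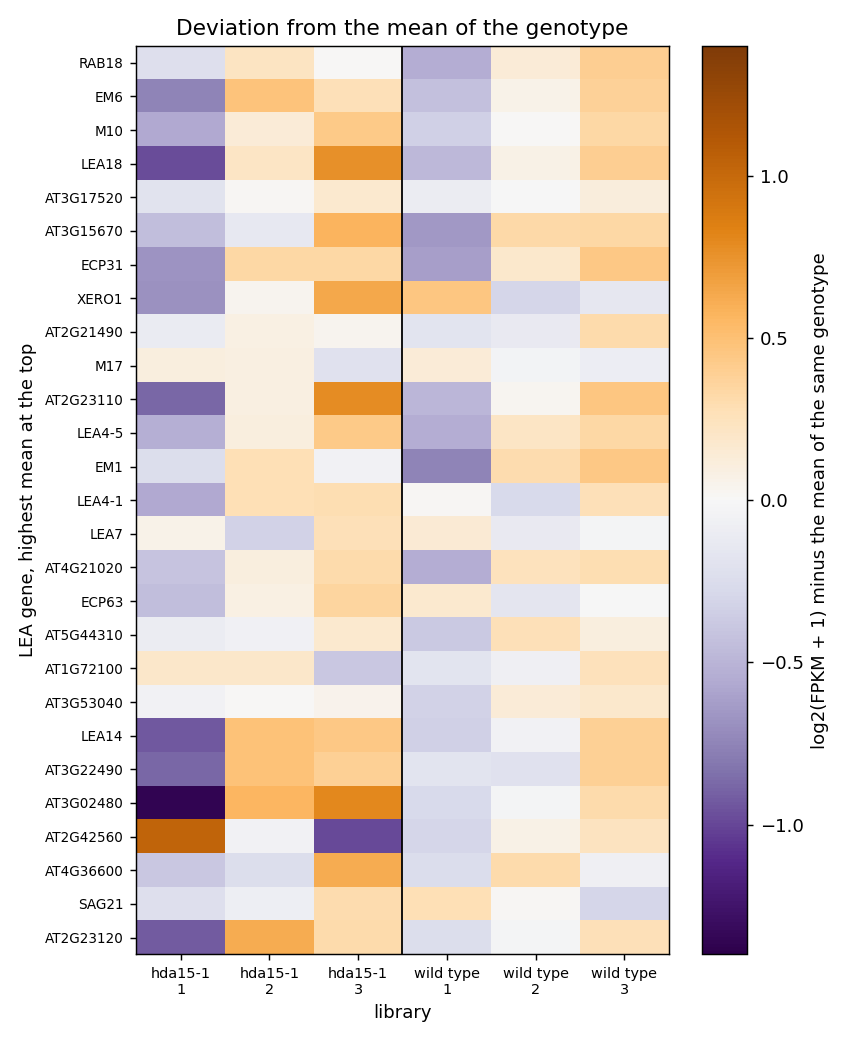
Deviation of each library from the mean of its genotype on the log2(FPKM + 1) scale for the 27 LEA genes with means of at least 100 FPKM, highest mean at the top, hda15-1 libraries left and wild-type libraries right. Purple, the colour of values below the mean, gathers in the columns of the libraries numbered 1, which were both the lowest of their genotype for 18 of the 27 genes.

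Exon length moved with the library values. LEA transcripts are short, with a median exon length of 984 bp against 1754 bp over the genes tested that have a length. In hda15-1 replicate 1 the median log2 deviation from the other 2 libraries of the genotype was -0.60 for LEA genes, -0.35 for the 2799 genes of 600 to 1200 bp and 0.29 for the 1831 genes above 3000 bp. In hda15-1 replicate 3 it was 0.42 for LEA genes and 0.33 for genes of 600 to 1200 bp. Over genes of 600 to 1200 bp and at least 100 FPKM, the hda15-1 replicate 1 median was -0.82 for the 18 LEA genes and -0.44 for all 534 genes. In wild type replicate 1 the same 18 LEA genes had a median of -0.58, while the 534 genes had 0.13. With the trend on exon length removed from every library, an alternative added after the data were seen, 0 LEA genes passed the threshold and the smallest LEA adjusted p in limma was 0.242.

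In the test across all genes, no LEA gene passed the threshold. With limma on log2(FPKM + 1) and Benjamini-Hochberg adjustment over 15045 genes, 0 of the 40 LEA genes tested had an adjusted p under 0.05, and the smallest LEA value was 0.797. Of all genes 0.219% passed, 0.199% as higher and 0.0199% as lower in hda15-1. At an unadjusted p under 0.05 stood 4 of the 40, against 4.28% of all genes. Of these, 2 were higher in hda15-1, against 3.08% of all genes, and 2 were lower, against 1.2%. The groups did not overlap for 4 of the 40, against 9.21% of all genes, a share near the background. Here too 2 were higher in hda15-1, against 5.78% of all genes, and 2 were lower, against 3.43%. The median difference, hda15-1 minus wild type, was 0.02 for the LEA genes and 0.02 for all genes, or -0.075 and -0.065 with libraries scaled to the same sum. In the unscaled values there were 22 LEA differences above 0 and 18 below, against 54.4% of all genes above 0. In size, 36 of the 40 differences were under 0.5. The 95% confidence interval lay within 2-fold in either direction for 27 of the 40, against 13035 of the 15045 genes. For the other 13 LEA genes a 2-fold difference lay inside the interval. An exact permutation of the 6 libraries for 1 gene has a smallest two-sided p of 0.1.

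**Figure D4:**
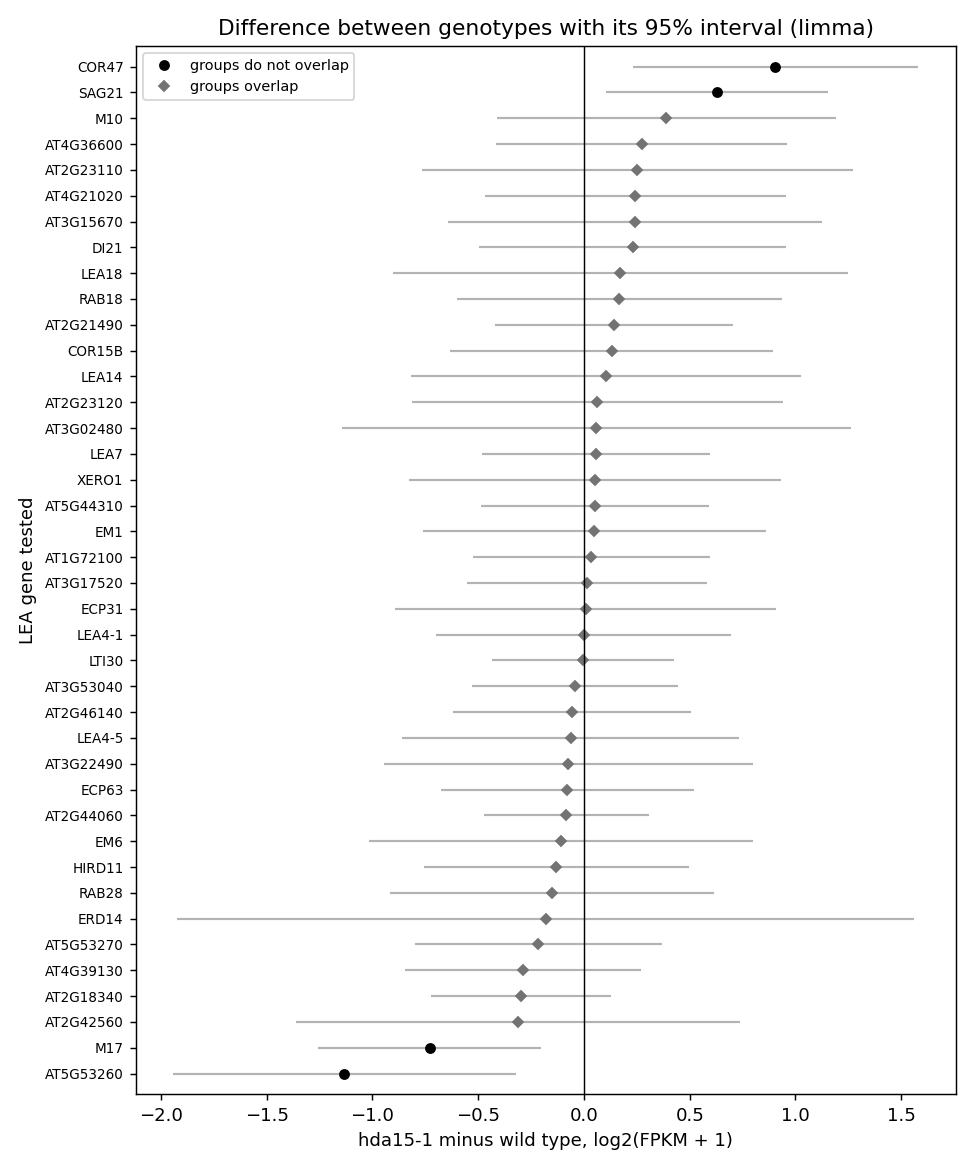
Difference of each tested LEA gene, as hda15-1 minus wild type in log2(FPKM + 1), with its 95% confidence interval from limma, ordered by size. Differences run from -1.13 for AT5G53260 to 0.91 for COR47, and the intervals of 36 of the 40 genes cross 0.

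The 4 LEA genes whose libraries did not overlap were also the 4 with an unadjusted p under 0.05, and 2 lay in each direction. M17 (AT2G41260), the second AtM gene, was at 1549, 1531 and 1253 FPKM in hda15-1, against 2621, 2319 and 2229 FPKM in wild type. Every mutant value was below every wild-type value, and the means were 1445 ± 166 FPKM in hda15-1 and 2389.6 ± 205 FPKM in wild type (SD, n = 3 each). Its difference was -0.73 (SE 0.23, 95% interval -1.25 to -0.20, limma adjusted p = 0.802). AT5G53260, an SMP gene, was at 5.88, 12.9 and 15.6 FPKM in hda15-1, against 22.4, 19.4 and 33.9 FPKM in wild type. The mutant libraries were again all lower, with a difference of -1.13 (SE 0.35, 95% interval -1.94 to -0.32, limma adjusted p = 0.797), or -0.75 without hda15-1 replicate 1. This gene and its neighbour AT5G53270 share 90.8% of bases over 444 bp, so reads may have been split between them.

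In the other direction, SAG21 (AT4G02380) was at 111, 122 and 160.2 FPKM in hda15-1, against 101, 84.7 and 67.8 FPKM in wild type. All mutant values were above all wild-type values, with a difference of 0.63 (SE 0.23, 95% interval 0.11 to 1.15, limma adjusted p = 0.980). In the annotation, the microRNA gene MIR2936 overlaps SAG21 by 180 bp on the same strand. COR47 (AT1G20440), a dehydrin of cold-treated leaves, was at 1.69, 1.73 and 3.15 FPKM in hda15-1, against 1.31, 0.656 and 0.214 FPKM in wild type. Its mutant values were all above its wild-type values at a low level, where reads may be few. The difference was 0.91 (SE 0.29, 95% interval 0.23 to 1.58, limma adjusted p = 0.847). COR47 passed the filter of a mean of 1 FPKM only through hda15-1, with means of 2.19 ± 0.829 FPKM in hda15-1 and 0.726 ± 0.551 FPKM in wild type (SD, n = 3 each), so it had to differ and its place in the counts above supports nothing. It shares 76.8% of bases over 771 bp with its neighbour ERD10.

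The remaining members with the largest differences overlapped between the genotypes. AT4G36600, an LEA_4 gene, was at 127, 143 and 258 FPKM in hda15-1, against 117, 172 and 132 FPKM in wild type, a difference of 0.27 (SE 0.30). The highest value was that of hda15-1 replicate 3, without which the difference was -0.039. AT2G18340, also LEA_4, was at 15.2, 19.3 and 21.2 FPKM in hda15-1, against 22.3, 20.9 and 25.4 FPKM in wild type, a difference of -0.30 (SE 0.19), or -0.17 without hda15-1 replicate 1. M10, whose library values are given above, differed by 0.39 (SE 0.35, limma adjusted p = 1.000). With single libraries left out this ran from 0.17 without hda15-1 replicate 3 to 0.67 without hda15-1 replicate 1, with 0.22 without wild type replicate 1.

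M10 and M17 lie 1998 bp apart on chromosome 2, on the same strand, and had differences of opposite sign. The ratio of M10 to M17 in FPKM was 2.75, 4.51 and 6.80 in hda15-1, against 1.45, 2.08 and 2.73 in wild type. The lowest mutant ratio, in replicate 1, lay just above the highest wild-type ratio. The 2 genes share 80.1% of bases over 332 bp, and this ratio was chosen after the values were seen, so it is given with no test. For AT5G53260 to AT5G53270, whose sequences are closer still, the ratio ran from 0.490 to 0.878 in hda15-1 and from 0.920 to 1.65 in wild type, without overlap. M17 and AT5G53260 each separated the genotypes by their own values, so neither ratio is a case apart from those differences. The ratios of 3 other neighbouring pairs overlapped between the genotypes. ECP31 to AT3G22490 ran from 9.20 to 11.9 in hda15-1 and from 7.19 to 12.7 in wild type, and XERO1 to LTI30 from 18.9 to 56.1 in hda15-1 and from 29.6 to 42.2 in wild type. AT2G23110 to AT2G23120 ran from 13.4 to 26.9 in hda15-1 and from 14.3 to 19.3 in wild type.

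None of the genes known to control LEA transcription passed the test between the genotypes. Of 18 seed maturation and ABA factors, 12 were tested and 0 passed an adjusted p of 0.05 in limma, against 0.219% of all genes. At that share, 0 of 12 says little about these factors. The groups did not overlap for 2 of the 12, against 9.21% of all genes. At an unadjusted p under 0.05 stood 1 of the 12, against 4.28% of all genes. That gene, ABI4, an ABA response factor of the AP2 family, was at 14.1, 10.6 and 11.6 FPKM in hda15-1, against 7.90, 8.86 and 6.45 FPKM in wild type. Its mutant values were all above its wild-type values (difference 0.59, SE 0.19, limma adjusted p = 0.834). ABF2, a bZIP factor of ABA responses, came next by p and was lower in every mutant library, with 1.32, 1.34 and 0.611 FPKM in hda15-1, against 1.88, 1.74 and 1.90 FPKM in wild type (difference -0.46, limma adjusted p = 1.000). ABI3 and ABI5, named for their role at these promoters and not for their values, overlapped between the genotypes. ABI3 was at 243, 152 and 129 FPKM in hda15-1, against 146, 177 and 183 FPKM in wild type. ABI5 was at 110.3, 90.6 and 111 FPKM in hda15-1, against 113, 117 and 103 FPKM in wild type, and the median difference over the 12 factors was 0.047.

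Of 6 cold and drought factors, CBF1, CBF2 and CBF3 were listed at 0 in all libraries. Of the other 3, 0 passed at either the adjusted or the unadjusted p, against 0.219% and 4.28% of all genes. DREB2A, which acts in drought, was at 23.9, 19.4 and 19.9 FPKM in hda15-1, against 21.7, 20.6 and 18.6 FPKM in wild type. ICE1, an activator of the CBF genes, was at 84.0, 71.0 and 73.4 FPKM in hda15-1, against 72.9, 65.6 and 67.4 FPKM in wild type. Neither separated the genotypes. Of 15 other genes induced by ABA, cold or drying, 11 were tested. In limma 0 of the 11 passed and 1 had an unadjusted p under 0.05, against 0.219% and 4.28% of all genes. That gene, GolS2, makes galactinol for the raffinose sugars of dry seeds, and was at 48.2, 42.0 and 38.9 FPKM in hda15-1, against 48.2, 76.5 and 80.3 FPKM in wild type (difference -0.63, limma adjusted p = 0.991). Its value in wild type replicate 1 equalled that of hda15-1 replicate 1 to 3 digits. RD29A, a classic drought gene, was at 3.50, 2.05 and 1.43 FPKM in hda15-1, against 2.69, 3.71 and 3.58 FPKM in wild type.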

How the data were processed

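For each library the authors deposited a table of transcript levels in FPKM, per the file headers. Alignment and quantification tools named in the submitters' processing notes are Bowtie 0.12.2, Cufflinks and Cuffdiff, with TAIR10 as genome build. Their settings, the annotation version and the strand mode were not given in the sources used here. FPKM rests on the transcript length used, so levels of short genes are less certain.

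Differences, hda15-1 minus wild type, came from limma 3.58.1 (R 4.3.3), fitted to log2(FPKM + 1) with a mean-variance trend and genotype as sole term. Of all rows, 15045 with a mean of 1 FPKM or more entered. Tests were two-sided, with Benjamini-Hochberg adjustment over all genes tested and a threshold of 0.05. The pseudocount of 1 understates differences of low genes. Sums and medians over the list have no test. Other steps used Python 3.11.15 with pandas 2.3.3. Positions, exon lengths and sequences come from the TAIR10.1 reference, joined by locus identifier. The tables themselves give no coordinates.

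The members, the other gene lists and the tests were chosen with earlier results of these data known. The text gives library values for the 2 highest members of each subfamily, members with an unadjusted p under 0.05, the 4 largest differences in each direction, and the 2 smallest p of each list of regulators or of ABA, cold and drying genes. Marker lists are given as sums and ranges. EXPA2, MAN7, RBCS1A, CRC, ABI3, ABI5 and members named by their mean alone stand outside this rule. Alternatives changed the scaling, pseudocount, filter, variance model, replicate block and libraries used.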

Additional observations from a re-analysis of the deposited data

How the results depend on the processing

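The count of LEA genes past the threshold was 0 as reported and in all 16 alternatives, all fitted with limma. The smallest LEA adjusted p ranged from 0.178 for COR47, without the libraries numbered 1, to 1.000. That lowest value rests on the libraries numbered 2 and 3 alone, and COR47 passed the filter only through hda15-1, so it supports nothing. The median LEA difference ranged from -0.08 to 0.20 with each library left out in turn, and the log2 ratio of the LEA sums from -0.07 to 0.32. With single libraries left out, AT2G42560 differed by -0.83 to 0.18 and AT4G36600 by -0.039 to 0.47. Without hda15-1 replicate 3 they had 0.18 and -0.039, opposite in sign to the values reported (limma adjusted p = 0.998 for each). The cause was not tested.

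Over all genes, 30 were higher and 3 lower in hda15-1. With a filter at a mean of 5 FPKM 13 were higher, and with all libraries scaled to the same sum 18. With both libraries numbered 1 left out, 73 were higher and 12 lower. With single libraries left out, 8 to 31 were higher and 3 to 5 lower, with 8 without hda15-1 replicate 2, 10 without hda15-1 replicate 3, 9 without wild type replicate 2 and 10 without wild type replicate 3. The causes were not tested.

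With the replicate number as a block, 13 genes were higher and 0 LEA genes passed. Deviations of same-numbered libraries correlated at -0.08, -0.11 and -0.16 over all genes tested. Over the LEA genes alone these correlations were 0.46, -0.10 and 0.24. Over all genes tested, 0 of the 6 libraries was closest to its own number in the other genotype, so no pairing by number was seen there. The correlations cannot tell whether same-numbered libraries were handled together, which the labels do not say. Scaling by upper quartile or to the same sum moved the median difference of all genes to -0.043 and -0.065, and scaling to the same sum moved the LEA median to -0.075, so its sign depends on the scaling. Depth may limit the members under 1 FPKM, which may rest on few reads, as the read totals are not known.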

Other observations

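AT3G02480, an LEA_4 gene chosen after its values were seen, had the lowest and the highest of its 6 values in hda15-1. It was at 73.7, 281 and 333 FPKM in hda15-1, against 150.1, 179 and 228 FPKM in wild type.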
